A study of Macaca mulatta with 8 samples.

Results

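The OAS, IFIT and IFI44 genes are antiviral genes that interferon switches on, and 10 of them were followed here through single-cell RNA sequencing of macaque retina after subretinal gene therapy. They were OAS1, OAS2, OAS3 and OASL, IFIT1, IFIT2, IFIT3 and IFIT5, and IFI44 and IFI44L. They were chosen by gene symbol and are 10 of the 26533 features counted. Each was measured in unique molecular identifiers (UMIs), which count captured RNA molecules. All 10 had UMIs in the 5 cell classes tested: rod, cone and bipolar neurons, Müller glia and myeloid cells. edgeR's quasi-likelihood test called none of them between areas or between eyes in any of these classes, whereas DESeq2 called at least 1 in 6 of 20 comparisons. With cell classes from a repeated clustering, edgeR called 0, 3 or 4 members between eyes in myeloid cells. Their levels differed several-fold between libraries. In the right eye the mScarlet bleb was the highest area in photoreceptors and the lowest in Müller glia, while in the left eye it was the highest in both.

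Interferon binds its receptor and, through the JAK kinases, activates a complex that holds STAT2 and IRF9. This complex binds the interferon-stimulated response element in the promoters of antiviral genes. OAS1, OAS2 and OAS3 sense double-stranded RNA and make short adenylate chains as a second messenger. OASL is a relative without that enzyme activity that takes part in RNA sensing. IFIT1, IFIT2, IFIT3 and IFIT5 bind foreign RNA by its 5′ end or assist in that binding, and so hold back its translation. IFI44 and IFI44L are cytoplasmic relatives whose molecular role is less settled. In the retina, Müller glia and microglia are known to take up interferon responses, and the RNA or DNA of a viral vector is among the stimuli that can start one.

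The 8 libraries came from retinal punches of 2 male wild-type rhesus macaques, NHP1 (5 years) and NHP2 (6 years), whose tissue was dissociated into single cells. NHP2 gave 3 areas in each eye, namely a bleb that received AAV8-GRK1-hRPGR, a bleb that received AAV8-GRK1-mScarlet, and an uninjected area. AAV8 is an adeno-associated viral vector, hRPGR is a human photoreceptor gene, mScarlet a red fluorescent reporter, and GRK1 the photoreceptor promoter that drives both. NHP1 gave 1 area labelled uninjected per eye, and both of its eyes had been injected with AAV2-CAG-hRPE65. All eyes had received triamcinolone, a steroid, beside the eyeball, and the left eye of each animal had also received adalimumab, an antibody against TNF, inside the eye. A difference between left and right eyes and an effect of adalimumab therefore cannot be told apart. By the paper, the mScarlet bleb was also smaller in the left eye, with a higher estimated dose per pigment epithelium cell. Atrophy developed in that left bleb. These differences cannot be told apart from the eye either. The 2 blebs of an eye also differed in vector dose, which was lower for mScarlet, and in vector preparation. The paper calls the hRPGR vector engineering grade and the mScarlet vector laboratory grade. Transgene, dose and preparation therefore cannot be told apart either. The 6 NHP2 libraries are areas of 1 animal, so p-values measure the spread between areas and eyes of that animal and not between animals.

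After filters, 91796 cells remained, 9562 to 15080 per library, with library totals of 90634306 to 146519011 UMIs. Removing likely doublets left 83192 of these cells. The libraries shared 135 to 255 cell barcodes in each of 28 pairs. Of 60 clusters, 40 were named from lists of marker genes, and 20 stayed unnamed. The unnamed clusters held 11.2% to 50.4% of a library's cells and were mostly poor in mitochondrial RNA and closest to rods. Classes are called "-like" because they rest on markers alone. Per NHP2 library there were 3505 to 5603 rod-like, 128 to 422 cone-like, 455 to 896 bipolar-like, 696 to 1233 Müller glia-like and 77 to 501 myeloid-like cells. Levels below are UMIs per 1000000 UMIs of the class (CPM), and each UMI marks the 5′ end of 1 molecule, so levels do not scale with gene length. A level is a sum over cells, so fewer expressing cells and less RNA per cell cannot be told apart in it.

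The transgenes were counted in rods as a check of the labels. The RPGR transgene was found in 98.3% of the rods in the hRPGR bleb of the right eye and 75.2% in that of the left, and mScarlet in 64.7% and 57.8% of rods of the mScarlet blebs. The library labelled as the right uninjected area of NHP2 also had the RPGR transgene, in 18.7% of its rods, and so had the right mScarlet bleb, in 4.64%. It is called uninjected below as its label says, and the medians of the members that rest on it are also given without it. In NHP1, whose areas are labelled uninjected, the RPE65 transgene was found in 45.3% of rods of the left library and in 1 rod of the right. The left library of NHP1 can therefore not be taken as free of vector, and neither NHP1 library entered a test.

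The members lie in 3 clusters of the Mmul_10 genome, as RefSeq annotates them. IFIT2 (chr9:89563460-89570421), IFIT3 (chr9:89585075-89596574), IFIT1 (chr9:89628584-89669645) and IFIT5 (chr9:89672665-89679799) follow each other on the plus strand. OAS1 (chr11:112632314-112654759), OAS3 (chr11:112661047-112689871) and OAS2 (chr11:112695363-112728626) are also neighbours on the plus strand, with OASL (chr11:120825244-120844960, minus strand) farther along. IFI44 (chr1:145749495-145763682) and IFI44L (chr1:145772273-145794334) lie side by side on the minus strand. These are families of related genes, and reads that match more than 1 of them may have been dropped or moved, so the order of levels among relatives is uncertain to that extent.

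The core of the interferon-stimulated response element was searched on both strands in the 300 bases from 250 before to 50 after each annotated start. It was written as GAAA, 2 free bases, GAAA. It was found at 6 of 15 member starts (40%), against 3.60% of 49243 annotated starts of all genes. By gene, IFIT1, IFIT2, IFI44, OAS1 and OASL had it, 5 of 10 members against 6.27% of 20782 protein-coding genes. Lists of pathway genes described further on held it too, in 12 of 18 other genes led by type I interferon, 7 of 12 genes led by interferon gamma, 3 of 11 RNA sensing genes and 1 of 17 signalling genes, so it is not particular to the members. The richest windows of IFIT1 and IFIT2 held 3 and 2 matches, and those of IFI44, OAS1 and OASL 1 each. IFIT3, IFIT5, OAS2, OAS3 and IFI44L had no match, which says only that these letters are not within these windows. The windows of 4 members that the levels below turn on are shown 5′ to 3′ on the gene's own strand, with each core match in capitals (RefSeq starts, Mmul_10). IFIT1 (chr9:89643238-89643537) and IFIT2 (chr9:89563210-89563509) were the richest in matches, and IFI44 (chr1:145763633-145763932) and IFI44L (chr1:145794285-145794584) are neighbours with unlike levels in rods.
IFIT1: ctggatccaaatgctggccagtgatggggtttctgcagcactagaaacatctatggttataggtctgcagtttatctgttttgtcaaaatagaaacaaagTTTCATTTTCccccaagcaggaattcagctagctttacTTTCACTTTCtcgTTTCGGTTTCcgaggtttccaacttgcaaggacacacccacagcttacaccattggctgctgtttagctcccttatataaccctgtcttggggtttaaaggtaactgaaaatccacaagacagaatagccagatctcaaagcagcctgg
IFIT2: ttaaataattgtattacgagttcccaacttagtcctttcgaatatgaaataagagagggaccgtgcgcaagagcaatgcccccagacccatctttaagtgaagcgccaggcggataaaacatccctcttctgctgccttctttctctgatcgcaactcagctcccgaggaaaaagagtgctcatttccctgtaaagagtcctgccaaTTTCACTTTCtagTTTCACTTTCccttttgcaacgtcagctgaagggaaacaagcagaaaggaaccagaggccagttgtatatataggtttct
IFI44: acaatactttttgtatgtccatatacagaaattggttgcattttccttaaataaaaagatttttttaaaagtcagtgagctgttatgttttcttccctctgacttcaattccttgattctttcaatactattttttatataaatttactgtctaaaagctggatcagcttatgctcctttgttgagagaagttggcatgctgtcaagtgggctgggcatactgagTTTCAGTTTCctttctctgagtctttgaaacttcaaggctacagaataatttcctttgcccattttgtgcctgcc
IFI44L: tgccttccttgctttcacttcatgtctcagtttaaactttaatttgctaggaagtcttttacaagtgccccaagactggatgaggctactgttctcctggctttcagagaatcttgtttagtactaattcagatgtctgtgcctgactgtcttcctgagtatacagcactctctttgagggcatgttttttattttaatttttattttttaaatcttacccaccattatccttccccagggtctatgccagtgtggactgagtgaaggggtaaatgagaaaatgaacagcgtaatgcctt

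**Figure D1:**
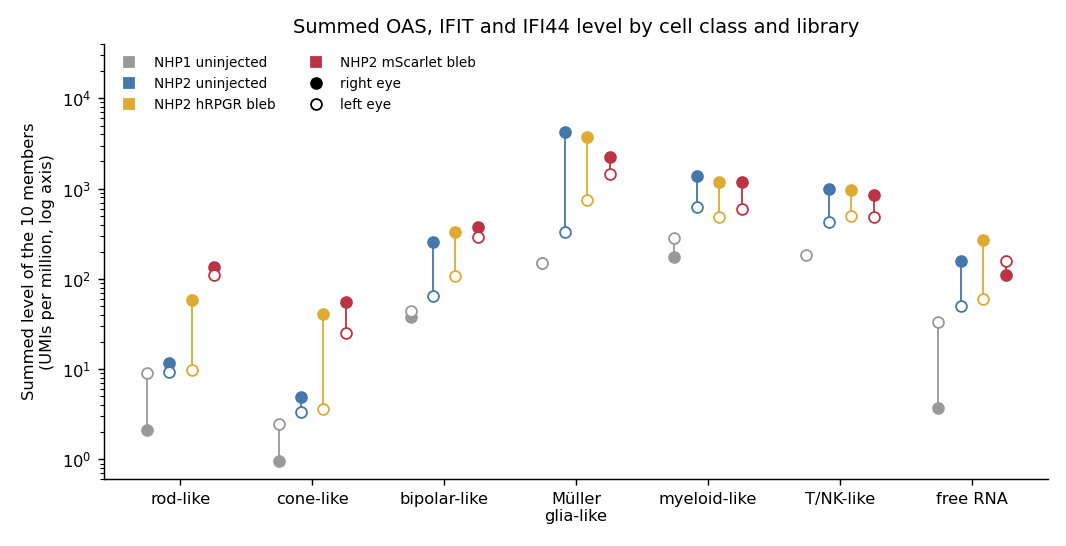
Summed level of the 10 members in CPM of the class (log axis) in each cell class and in free RNA, with 1 point per library, filled for right eyes and open for left eyes, and a line joining the eyes of an area. Rod-like cells of the mScarlet blebs sit at 134 and 109.6 CPM above all other rod points, while in Müller glia-like cells the right uninjected area is highest at 4214 CPM and the left uninjected area lowest of NHP2 at 334 CPM. The NHP1 Müller points coincide near 150.1 CPM.

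In rod-like cells the summed level of the members was higher in both mScarlet blebs than in both uninjected areas of NHP2. Of the 8 members tested 6 had this order, against 31.8% of all genes. The summed level was 11.7 CPM (right eye) and 9.39 CPM (left eye) in the uninjected areas, 57.8 and 9.88 CPM in the hRPGR blebs, and 134 and 109.6 CPM in the mScarlet blebs. Within the right eye the mScarlet bleb was 11.5-fold above the uninjected area, and within the left eye 11.7-fold. The hRPGR bleb was 4.95-fold above in the right eye and 1.05-fold in the left, so only its right library stood out. Rods of NHP1 were at 2.11 and 8.95 CPM.

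The rods of the areas did not lie in the same clusters, although the members and the pathway genes were kept out of the clustering. The uninjected areas held 3235 and 2445 cells of cluster 15 and 1553 and 576 of cluster 28 (right, then left), and no mScarlet library had more than 9 cells in either. The mScarlet blebs held 1325 and 1578 cells of cluster 12, 1514 and 1983 of cluster 13, and 1930 and 2026 of cluster 54, and the uninjected areas at most 90. Area and cluster can therefore hardly be told apart between mScarlet blebs and uninjected areas. The left hRPGR bleb was split over both kinds, with a summed level of 6.68 CPM in cluster 15, beside 10.2 and 8.54 CPM in the uninjected areas, and of 12.9 CPM in cluster 54, beside 109.9 and 102 CPM in the mScarlet blebs. Its level was thus near the uninjected areas in the first and far below the mScarlet blebs in the second. The left uninjected area was at 13.8 CPM in cluster 54 (90 cells). In cluster 13 it was at 38.7 CPM (21 cells), beside 211.5 and 150.0 CPM in the mScarlet blebs. Cluster 9 was at 41.0 and 22.3 CPM in the uninjected areas (170 and 352 cells) and 96.0 CPM in the right mScarlet bleb (51 cells). The left mScarlet bleb had 14 cells there and 0 member UMIs. These differences rest on few cells and were not tested. Cluster 7, closest to rods but unnamed and left out, held 1170 and 825 cells of the uninjected areas and 3 and 2 of the mScarlet blebs. With 11 unnamed clusters of this kind counted as rods, the summed levels were 14.9 and 9.94 CPM uninjected and 124.9 and 104.8 CPM in the mScarlet blebs, and edgeR called 0 members.

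IFIT1, which binds RNA that lacks the cap marks of the cell's own messages, was the most abundant member in rods of the right-eye areas and the left mScarlet bleb, while IFIT5 was above it in the left uninjected area, the left hRPGR bleb and both NHP1 libraries. IFIT1 was at 4.63 and 2.08 CPM in the uninjected areas, 30.5 and 2.11 CPM in the hRPGR blebs and 60.0 and 43.8 CPM in the mScarlet blebs (right, then left). Its partner IFIT3 was at 1.52 and 0.51 CPM uninjected, 8.49 and 0.68 CPM in the hRPGR blebs and 36.8 and 27.9 CPM in the mScarlet blebs. In both genes the left hRPGR bleb lay near the uninjected areas, and neither mScarlet library overlapped any other. IFI44 was at 0.28 and 0.085 CPM uninjected, 2.51 and 0.11 CPM in the hRPGR blebs and 14.9 and 12.8 CPM in the mScarlet blebs. OAS3, a sensor of long double-stranded RNA, was at 0.34 and 0.38, 2.44 and 0.43, and 6.56 and 7.94 CPM in the same order. Both stood highest in the mScarlet blebs again. IFIT5, whose levels varied least of these genes, was at 3.54 and 5.52, 7.69 and 5.98, and 10.9 and 11 CPM. IFIT2 was at 0.84 and 0.51, 3.62 and 0.32, and 4.46 and 5.35 CPM. These 6 genes had both mScarlet libraries above both uninjected ones, an order that 31.8% of all genes also had.

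The remaining rod members were low. OAS2, at 0.16 and 0.042 CPM uninjected, was highest in the right hRPGR bleb (1.15 CPM) and at 0.36 and 0.17 CPM in the mScarlet blebs. These CPM put both mScarlet libraries just above both uninjected ones, but on the scaled level of the fit the groups overlapped, and OAS2 had 1 to 11 UMIs in each of these 4 libraries. IFI44L, the genomic neighbour of IFI44, stayed at 0.97 CPM or below in all 6 libraries, with 0.19 and 0.46 CPM in the mScarlet blebs and overlapping groups. OAS1 and OASL did not reach the count filter in rods.

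**Figure D2:**
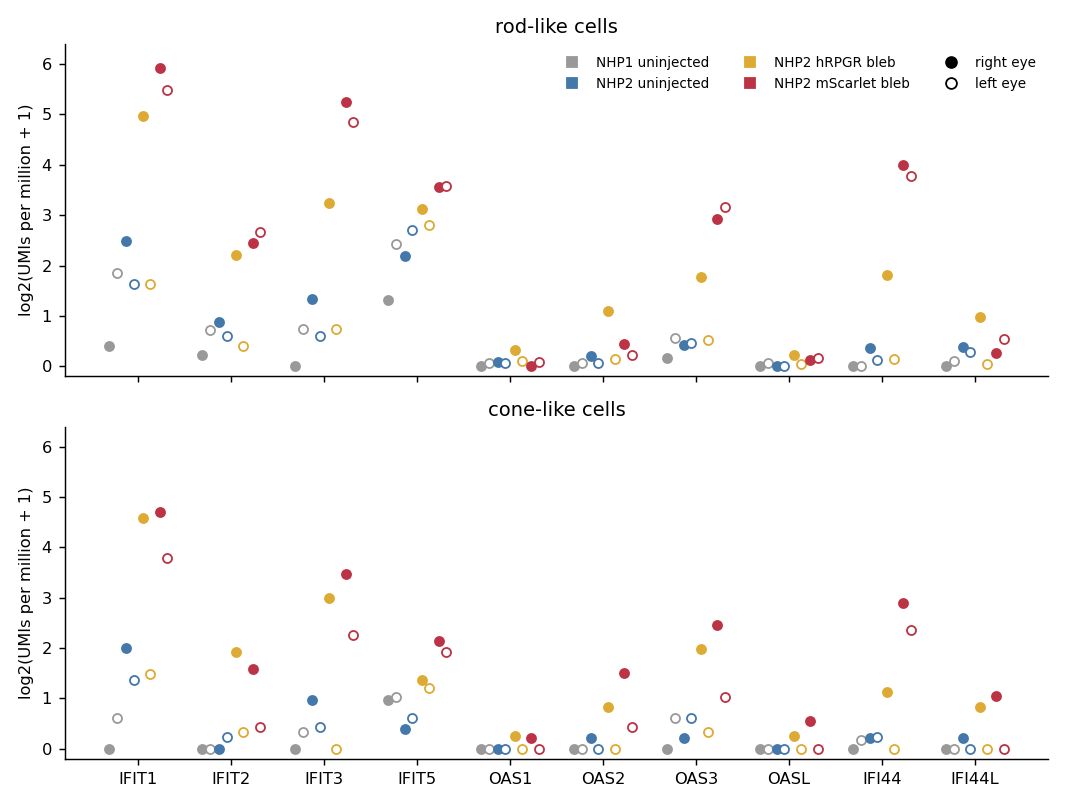
Level of each member as log2(CPM + 1) in rod-like cells (top) and cone-like cells (bottom), 1 point per library, coloured by animal and area, filled for right and open for left eyes. IFIT1, IFIT3, IFI44 and OAS3 of the mScarlet blebs lie above every other rod library, the right hRPGR bleb comes next, and the left hRPGR bleb lies with the uninjected areas.

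Between the mScarlet blebs and the uninjected areas, edgeR's quasi-likelihood test called 0 of the 8 rod members tested at an adjusted p of 0.05. It called 1.56% of the 14455 genes tested (225 genes), and 0 genes when the eye was kept as a block. The fitted log2 fold change of IFI44 was 5.98 ± 1.16 (SE derived from the test, adjusted p = 0.0571 by edgeR), of IFIT3 4.78 ± 1.02 (0.0649), of OAS3 4.18 ± 0.73 (0.0534) and of IFIT1 3.77 ± 1.06 (0.102). IFIT2 was at 2.69 ± 0.92 (0.145) and IFIT5 at 1.15 ± 0.21 (0.0541), a small difference with the smallest error. OAS2 was at 1.15 ± 1.26 and IFI44L at 0.17 ± 1.16. By unadjusted p, 6 of 8 members were higher at 0.05, against 13.9% of all genes, and 6 of 8 had both mScarlet libraries above both uninjected ones, against 31.8% of all genes. Of these, IFI44 would not have passed the count filter without the mScarlet libraries, so these counts are in part set by the filter. DESeq2 called 6, all those with a low unadjusted p, among 1549 genes in all, and 4 to 6 with repeated clusterings. With the right or left hRPGR library out, edgeR called the same 6, among 1411 and 1273 genes. The median log2 fold change of the 8 was 3.23, beside 0.0062 over all genes, and 3.67 without the right uninjected library.

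The hRPGR blebs against the uninjected areas gave 0 members called in rods by edgeR and 0 by DESeq2, where edgeR called 0.0% of all genes. At an unadjusted p under 0.05, 2 of 8 were higher (4.23% of all genes), namely OAS3 (1.87 ± 0.74) and IFIT5 (0.52 ± 0.21), each with an adjusted p of 0.82. The median log2 fold change of the 8 was 1.92, or 2.40 without the right uninjected library, and IFI44 was highest at 2.61 ± 1.24. Leaving out the right hRPGR library gave a median of -0.73, so the direction rested on that library, and with the left hRPGR library out 3 members were called, among 166 genes. The mScarlet against the hRPGR blebs gave 0 members called by edgeR (0.0% of all genes), 4 higher at an unadjusted p under 0.05 (4.47% of all genes) and 1 called by DESeq2 (OAS3, among 135 genes). The median was 1.48, with IFI44 at 3.38 ± 0.92 (adjusted p = 0.567). Leaving out the right hRPGR library gave a median of 3.88, and 5 members were called among 153 genes, and leaving out the left one gave 0.65 and 0 members called.

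Free RNA, measured in droplets with 100 to 1000 UMIs, held the members at 159.7 and 49.7 CPM in the uninjected areas, 270.3 and 60.0 CPM in the hRPGR blebs and 111 and 157 CPM in the mScarlet blebs. From foreign markers its estimated part of the rod level was 7.27 of 11.7 CPM and 4.12 of 9.39 CPM in the uninjected areas. In the hRPGR blebs it was 22.9 of 57.8 CPM and 2.46 of 9.88 CPM, and in the mScarlet blebs 5.35 of 134 CPM and 4.58 of 109.6 CPM. The estimate was thus a larger part of the low rod levels than of the mScarlet levels. With it subtracted 4 rod members were called between mScarlet blebs and uninjected areas, among 616 genes. The estimate rests on markers alone, and the part of free RNA in the rod levels was not tested. Müller markers in rods summed to 52.5 and 117 CPM uninjected and to 78.1 and 119.9 CPM in the mScarlet blebs, overlapping ranges. Myeloid markers in rods summed to 2.05 and 3.40 CPM uninjected, 18.6 and 2.83 CPM in the hRPGR blebs and 7.78 and 10.2 CPM in the mScarlet blebs, and their part in the result was not tested.

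Cone-like cells followed the rods at a lower level. Their summed level was 4.89 and 3.32 CPM uninjected, 40.3 and 3.64 CPM in the hRPGR blebs and 55.2 and 25.3 CPM in the mScarlet blebs. The right hRPGR bleb lay between the mScarlet blebs, so the bleb groups overlapped, while the left hRPGR bleb was again like the uninjected areas. IFIT1 was at 3.0 and 1.57, 22.9 and 1.82, and 25.2 and 12.8 CPM. IFI44 was at 0.16 and 0.17 CPM uninjected and at 6.49 and 4.15 CPM in the mScarlet blebs, with 1.19 and 0 CPM in the hRPGR blebs.

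Of 6 cone members tested, edgeR called 0 between mScarlet blebs and uninjected areas, where it called 0.567% of 11649 genes. Of the 6, 5 were higher at an unadjusted p under 0.05 (8.23% of all genes) and all 6 had both mScarlet libraries above both uninjected ones (24.8% of all genes). At least IFI44 passed the count filter only through the mScarlet libraries, so these counts are in part set by the filter. DESeq2 called IFI44 alone, among 281 genes, and edgeR with the right or left hRPGR library out called IFI44 and IFIT1, among 215 and 176 genes. With the eye as a block the genes called went from 66 to 23, none a member. The fitted log2 fold change of IFI44 was 4.73 ± 0.99 (adjusted p = 0.0977 by edgeR), and the median of the 6 was 3.13, or 3.07 without the right uninjected library. For the hRPGR blebs 0 members were called (0.00858% of all genes), 3 of 6 were higher at an unadjusted p under 0.05 (3.79%), DESeq2 called 0, and the median was 2.30, or -0.33 without the right hRPGR library and 2.34 without the right uninjected library. Between the blebs 0 members were called (0.0944% of all genes), 1 was higher at an unadjusted p under 0.05 (3.96%), and DESeq2 called 0. The median was 0.83 and ran from -0.05 (without the right mScarlet library) to 3.29 (without the right hRPGR library).

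Bipolar-like cells, the interneurons that receive photoreceptor signals, lay between photoreceptors and Müller glia in level. The summed level was 255 and 64.9 CPM in the uninjected areas, 328 and 107 CPM in the hRPGR blebs and 377 and 288 CPM in the mScarlet blebs (right, then left), beside 37.9 and 44.0 CPM in NHP1. The mScarlet bleb was highest in each eye, 1.48-fold above the uninjected area in the right eye and 4.43-fold in the left. The hRPGR bleb was 1.29-fold and 1.65-fold above. IFIT1 was at 183 and 37.9, 225 and 68.9, and 234 and 171 CPM, and IFIT3 at 23.2 and 1.26, 35.7 and 9.14, and 61.5 and 51.6 CPM. OAS3, the member with the lowest p between mScarlet blebs and uninjected areas, was at 5.96 and 2.95, 9.83 and 3.17, and 12.8 and 13.9 CPM. IFIT5 was nearly even, between 14.1 and 17.8 CPM in all 6 libraries and at 13.4 and 13.8 CPM in NHP1.

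edgeR called 0 of the 7 bipolar members tested between mScarlet blebs and uninjected areas, and 0.608% of 12668 genes. Of the 7, 3 were higher at an unadjusted p under 0.05 (6.08% of all genes) and 4 had both mScarlet libraries above both uninjected ones (22.4% of all genes). DESeq2 called 0, edgeR with the right or left hRPGR library out called OAS3, among 146 and 151 genes, and with the eye as a block the genes called went from 77 to 45, none a member. The fitted log2 fold change was 2.20 ± 0.74 for IFIT3 (adjusted p = 0.33), 1.62 ± 0.78 for IFI44, 1.58 ± 0.46 for OAS3 (adjusted p = 0.264), 1.32 ± 0.56 for IFIT2 and 0.87 ± 0.64 for IFIT1. It was near 0 for OAS1 (0.34 ± 0.49) and IFIT5 (0.08 ± 0.18). The median was 1.32, or 2.31 without the right and 0.73 without the left uninjected library. The hRPGR blebs against the uninjected areas gave 0 members called (0.0% of all genes), 0 higher at an unadjusted p under 0.05 (2.25%), 0 by DESeq2 and a median of 0.38 that ran from -0.48 to 1.58 with 1 library left out. The mScarlet against the hRPGR blebs gave 0 called (0.0789% of all genes), 1 higher at an unadjusted p under 0.05 (OAS3, against 3.26% of all genes), 0 by DESeq2 and a median of 0.72, or 1.94 without the right and 0.18 without the left hRPGR library.

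Between eyes, 5 of 7 bipolar members were lower in the left at an unadjusted p under 0.05 (1.15% of all genes), and the same number was lower in all 3 areas (11.3% of all genes). edgeR called 0 after adjustment (0.0% of all genes) and DESeq2 0. The log2 difference, left minus right, was -1.85 ± 0.34 for IFI44 (adjusted p = 0.709) and -1.44 ± 0.29 for IFIT1 (0.731), -1.41 ± 0.47 for IFIT3, -1.06 ± 0.35 for IFIT2 and -0.89 ± 0.30 for OAS1. OAS3 was at -0.69 ± 0.34 and IFIT5 at -0.15 ± 0.15. The median was -1.06, or -0.92 without the right uninjected library, and ran from -1.82 (without either mScarlet library) to -0.73 (without the right hRPGR library).

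Müller glia-like cells, the supporting glia that span the retina, held the highest level of all classes with at least 20 cells in 5 of 6 NHP2 libraries, the left uninjected area being the exception, and there the order of the areas turned with the eye. The summed level in right eyes was 4214 CPM in the uninjected area, 3715 CPM in the hRPGR bleb and 2246 CPM in the mScarlet bleb. In left eyes it was 334, 740.3 and 1457 CPM in the same areas. The right eye was thus 12.6-fold above the left in the uninjected area, 5.02-fold in the hRPGR bleb and 1.54-fold in the mScarlet bleb, and every right-eye library was above every left-eye library. The NHP1 libraries were at 150.1 and 150.3 CPM. The eyes did not hold the same Müller clusters. Cluster 37 had 284 cells of the right and 4 of the left uninjected area, and cluster 23 had 30 and 455, while in the mScarlet blebs these counts were 357 and 388, and 15 and 20. Cluster 17 had 338 to 774 cells of each library, and within it the summed level was 2688 and 300.0 CPM in the uninjected areas, 3154 and 554 CPM in the hRPGR blebs and 1165 and 1193 CPM in the mScarlet blebs (right, then left). Within this cluster the right eye was thus above the left in the uninjected area and the hRPGR bleb, and nearly level with it in the mScarlet bleb. The Müller markers themselves summed to 26274 to 34355 CPM in the 6 libraries, and free RNA was estimated at no more than 26.6 CPM of any of these sums.

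The member with the largest part of this sum was IFIT1, at 1897 CPM in the right uninjected area, 1745 CPM in the right hRPGR bleb and 1013 CPM in the right mScarlet bleb, and at 169, 356 and 652 CPM in the left. IFIT3 was at 1009, 893 and 552 CPM in the right eye and 65.2, 151 and 345 CPM in the left. IFIT2, which pairs with IFIT3 and IFIT1, was at 660.2, 485 and 291 CPM and at 23.9, 111 and 211 CPM. In these 3 genes the mScarlet bleb was the lowest area of the right eye and the highest of the left. OAS3 ran from 202 to 104 CPM in the right eye and from 25.5 to 71.4 CPM in the left, and IFI44L from 167 to 111 CPM and from 17.3 to 61.0 CPM. IFIT5 had a narrow spread, 42.8 to 57.3 CPM in the right eye and 18.7 to 29.1 CPM in the left.

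Since the orders crossed, comparisons of areas over both eyes were near 0 in Müller glia-like cells. edgeR called 0 of 10 members for mScarlet against uninjected areas (0.553% of all genes), 0 for hRPGR against uninjected areas (0.0156%) and 0 for mScarlet against hRPGR blebs (0.00779%). DESeq2 also called 0 in each. With the eye as a block the genes called for mScarlet went from 71 to 36, none a member. At an unadjusted p under 0.05 there was 1, 0 and 0 (against 15%, 3.87% and 10.9% of all genes), the first being OASL at a log2 fold change of 3.13 ± 1.27 (adjusted p = 0.313), a gene at 0.11 to 4.04 CPM that was at 0 CPM in the left hRPGR bleb. The median log2 fold changes of the 10 members were -0.25, -0.01 and -0.32. Without the right uninjected library the first and second were 2.64 and 2.88, and without the left uninjected library -1.18 and -0.88, again with 0 members called. The third was 1.41 without the right and -1.05 without the left hRPGR library, and the second -1.63 and 0.72. In the right eye 2 of 10 members were higher in the mScarlet bleb than in the uninjected area, and in the left eye 10 of 10. For the hRPGR bleb these counts were 4 and 9. Each count sets 1 library against 1 other, and the share of all genes in the same order was not taken, so they are a description only.

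**Figure D3:**
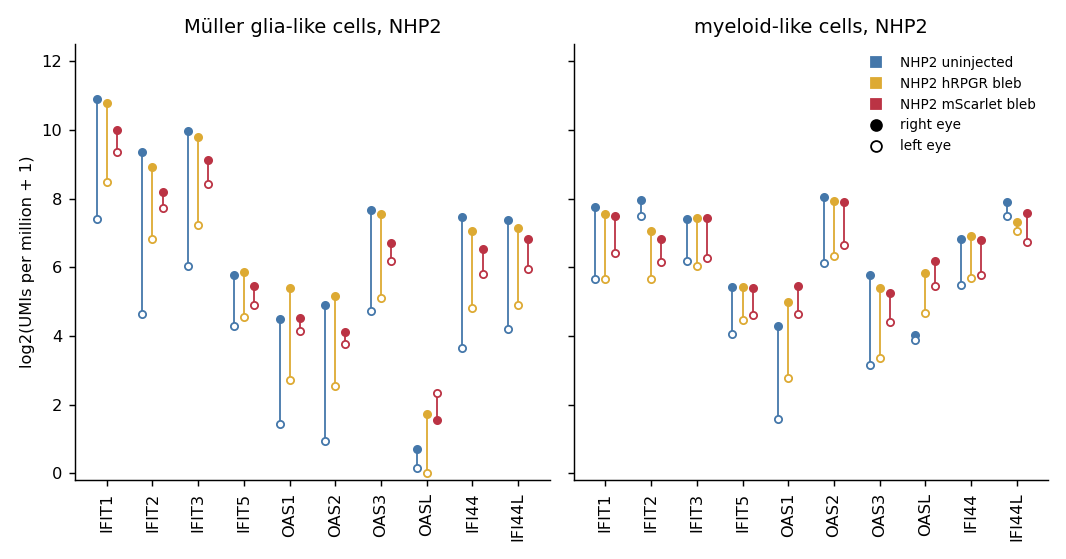
Level of each member as log2(CPM + 1) in Müller glia-like cells (left) and myeloid-like cells (right) of NHP2, filled for right eyes, open for left eyes, with a line joining the eyes of each area. All right-eye points lie above the left-eye points of the same area except OASL of the mScarlet bleb in Müller glia-like cells, and the lines shorten from uninjected to mScarlet in Müller glia-like cells except OASL.

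Left against right eyes were compared with area in the model. In Müller glia-like cells 9 of the 10 members tested were lower in the left eye at an unadjusted p under 0.05, against 1.47% of all genes, and 9 were lower in all 3 areas, against 10.6% of all genes. edgeR called 0 of them after adjustment, as of all genes (0.0%), and DESeq2 called IFIT5 alone, among 17 genes. The log2 difference, left minus right, was -2.40 ± 0.61 for IFIT3 (adjusted p = 0.958), -2.37 ± 0.73 for OAS2, -2.36 ± 0.81 for IFIT2, -2.25 ± 0.57 for IFI44 and -2.14 ± 0.53 for IFIT1. It was -2.10 ± 0.44 for IFI44L, -2.08 ± 0.58 for OAS1, -1.99 ± 0.47 for OAS3 and -1.14 ± 0.20 for IFIT5 (adjusted p = 0.849). The exception was OASL, at -0.63 ± 1.00. The median was -2.12, or -1.45 without the right uninjected library, and leaving out either mScarlet library gave a median of -3.14 and 6 members called, among 46 genes (right) and 40 (left). In repeated clusterings these counts of 6 were 0 to 9.

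Myeloid-like cells, a class that joins microglia and infiltrating phagocytes, differed between eyes in each area. The summed level was 1377 and 628 CPM in the uninjected areas, 1182 and 485 CPM in the hRPGR blebs and 1195 and 601 CPM in the mScarlet blebs (right, then left). Right eyes were 2.19-fold, 2.44-fold and 1.99-fold above left eyes. NHP1 was at 173 and 285 CPM. Here OAS2 weighed more than in neurons, and at 263 and 68.9, 242 and 79.4, and 238 and 99.6 CPM it had the lowest p of all members between eyes. IFIT1 was at 214 and 49.2, 188 and 49.3, and 178 and 85.0 CPM, below its Müller level in every library.

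All 10 myeloid members were lower in the left eye at an unadjusted p under 0.05 (1.34% of all genes), and all 10 were lower in all 3 areas (11.6% of all genes). edgeR called 0 after adjustment (0.0% of all genes), and DESeq2 called 4, namely IFI44, IFIT1, IFIT3 and OAS2, among 15 genes. In 3 repeats of the clustering edgeR called 0 members, then 3 among 13 genes (IFIT1, IFIT3 and OAS2) and 4 among 15 genes (these and IFI44), and DESeq2 called 3 in each. The log2 difference, left minus right, was -1.55 ± 0.20 for OAS2, -1.61 ± 0.23 for IFIT1 and -1.26 ± 0.18 for IFIT3, each with an adjusted p of 0.0573 by edgeR. IFI44 was at -1.17 ± 0.18 (adjusted p = 0.0692), OAS3 at -1.51 ± 0.31, OAS1 at -1.38 ± 0.34, IFIT5 at -0.96 ± 0.22, IFIT2 at -0.86 ± 0.21 and OASL at -0.84 ± 0.22. IFI44L had the smallest difference, -0.53 ± 0.19 (adjusted p = 1), and its levels were 239.6 and 177, 157 and 131, and 192 and 105 CPM. The median was -1.22. Without the right uninjected library it was -1.17 and 8 members were called among 68 genes, and 3 to 6 in the repeats. Without the left uninjected library it was -1.18 and 0 members were called, so the count of 8 did not hold with the other eye of this area out. Without either mScarlet library 0 were called as well. Without the hRPGR library of the right eye 4 were called among 30 genes, and without that of the left 5 among 48 genes. Myeloid markers in this class summed to 9590.1 to 11718 CPM in the right eye and 7216 to 13350.0 CPM in the left, overlapping ranges. Whether microglia and infiltrating cells took different shares of the class in the 2 eyes was not tested.

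Between areas, 2 of 10 myeloid members had an unadjusted p under 0.05 for mScarlet against uninjected areas, a share close to the 17.6% of all genes. OASL was at 15.2 and 13.8 CPM uninjected, 56.2 and 24.2 CPM in the hRPGR blebs and 71.5 and 42.6 CPM in the mScarlet blebs, with both mScarlet libraries above both uninjected ones. This order was held by 2 of 10 members and by 2861 of 10937 genes, so the members did not stand out in it. The log2 fold change of OASL for mScarlet was 2.03 ± 0.52 (adjusted p = 0.0846 by edgeR). It was the only member called with the eye as a block, and DESeq2 called it too, among 380 genes. IFIT2 was at 249.7 and 179 CPM uninjected, 133 and 49.3 CPM in the hRPGR blebs and 113 and 69.6 CPM in the mScarlet blebs, with a log2 fold change of -1.17 ± 0.41 for mScarlet (adjusted p = 0.175) and -1.28 ± 0.42 for hRPGR (0.572). edgeR called 0 of 10 members for mScarlet against uninjected areas (1.57% of all genes, with 172 genes called or 170 with the eye as a block). It called 0 for hRPGR (0.0% of all genes), with 2 at an unadjusted p under 0.05 (OASL and IFIT2, against 7.4% of all genes) and 0 by DESeq2. It called 0 between the blebs (1.28% of all genes, 140 genes or 61 with the eye as a block), with 0 at an unadjusted p under 0.05 (15.4%) and 0 by DESeq2. The median of the 10 for mScarlet against uninjected areas was 0.08, or 1.25 without the right uninjected library and -0.60 without the right mScarlet library. For hRPGR it was -0.11, or 1.11 without the right uninjected library and -0.92 without the right hRPGR library. The uninjected areas gave only 87 and 77 myeloid-like cells (right, then left). The paper separates myeloid cells found in all areas from others found in the AAV8-treated areas. Whether the mix of such cells differed between areas here was not tested.

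Depth moved with the eye in this class. The median UMIs of a myeloid-like cell were 3414 to 5136 in the 3 right-eye libraries and 5926 to 7449.5 in the left, and the part of this in the eye difference was not tested. Free RNA was estimated at no more than 26.7 CPM of any myeloid sum.

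**Figure D4:**
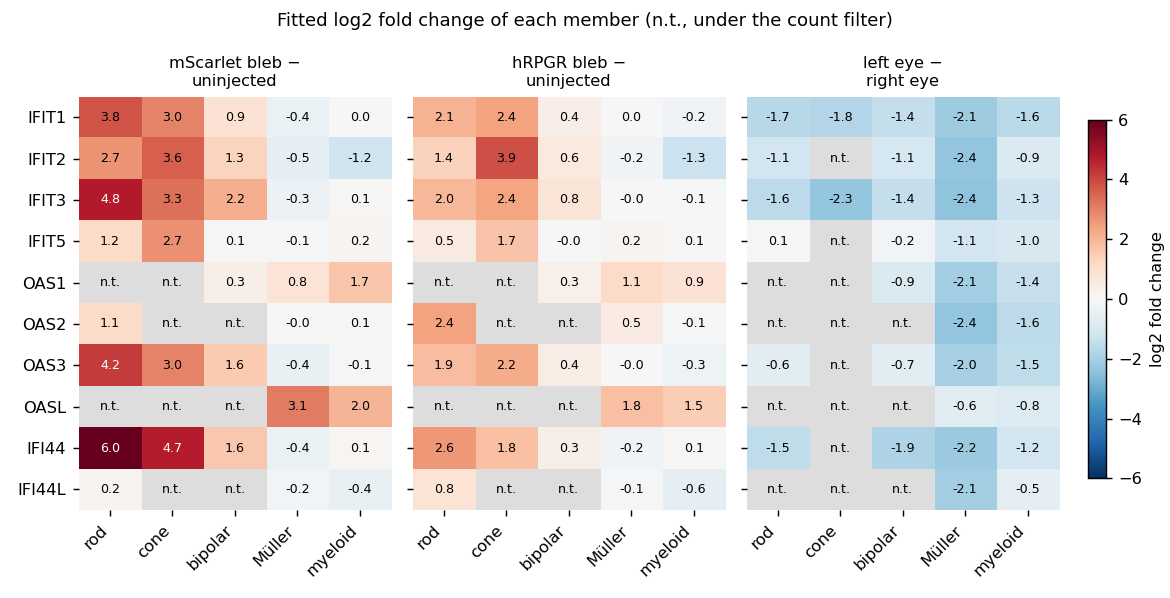
Fitted log2 fold change of each member (colour and number) by cell class for the mScarlet bleb against the uninjected area, the hRPGR bleb against the uninjected area, and the left against the right eye of NHP2, with grey for members under the count filter. The first panel runs to 5.98 in rods and lies between -0.53 and 0.80 in Müller glia except OASL (3.13), while the third is negative for every tested pair of member and class but IFIT5 in rods (0.08).

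In photoreceptors fewer members were tested between eyes and fewer had a low unadjusted p than in glia or myeloid cells, a difference between classes that was not tested. Of 6 rod members tested, edgeR called 0 between left and right eyes (0.0% of 13949 genes), and DESeq2 called 0. At an unadjusted p under 0.05, 2 were lower in the left (0.401% of all genes), IFIT1 at a log2 difference of -1.69 ± 0.63 and IFIT3 at -1.59 ± 0.58. These and IFI44 (-1.52 ± 0.75) were lower in all 3 areas, 3 of 6 against 8.79% of all genes. IFIT5 was at 0.08 ± 0.19. The median was -1.33, or -1.35 without the right uninjected library, -0.26 or -0.24 with the hRPGR library of the right or left eye out, and -2.62 if the left mScarlet library was left out, and IFIT1 was called without the right hRPGR library, among 145 genes. Of the 2 cone members tested, IFIT1 was at -1.75 ± 0.48 and IFIT3 at -2.32 ± 0.76, both at an unadjusted p under 0.05 (1.03% of all genes) and both with an adjusted p of 1. edgeR called 0 of them (0.00887% of all genes) and DESeq2 0. Their median was -2.04, or -2.18 without the right uninjected library and -0.78 without the right hRPGR library.

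Over classes, the right eye of NHP2 had the higher summed level in 27 of 27 pairs of eyes, counted over the areas of 10 classes with at least 20 cells in both eyes. These classes came from the same libraries and are not independent of each other. Horizontal cell-like cells, which link photoreceptors sideways, were at 453 and 39.6, 432 and 193, and 536 and 340.0 CPM (uninjected, hRPGR and mScarlet, right then left). Amacrine-like cells were at 268 and 73.8, 359 and 95.6, and 458 and 232 CPM. In NHP1 the eyes did not share 1 direction. Rods, cones, bipolar, horizontal and myeloid cells were higher in the left library, Müller glia nearly equal, and amacrine cells higher in the right, at 106 and 62.6 CPM. Free RNA of the NHP2 mScarlet bleb was also higher in the left eye.

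T and NK cell-like cells, the infiltrating lymphocytes, numbered 24 to 434 per NHP2 library and were not among the classes tested. Their summed level was 1002 and 423 CPM uninjected, 967 and 499 CPM in the hRPGR blebs and 852 and 489.6 CPM in the mScarlet blebs, higher on the right in each area. OAS2 was their leading member, at 311 and 119, 246 and 126, and 248 and 151 CPM. OASL, low in every neuron, was at 161 and 59.5, 117 and 79.3, and 108 and 85.0 CPM.

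**Figure D5:**
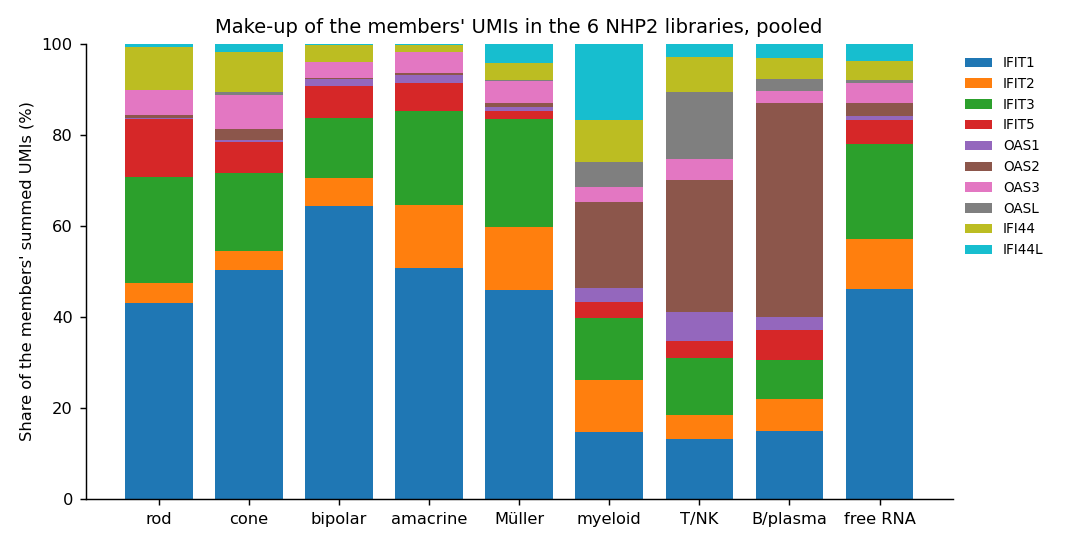
Share of each member in the members' summed UMIs (percent, stacked to 100) by cell class over the 6 NHP2 libraries. IFIT1 fills 43.0% to 64.3% of the bars of rods, cones, bipolar cells and Müller glia and 13.1% to 14.6% of those of T/NK and myeloid cells, where OAS2 is larger.

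The members made up the sum differently in neural and immune classes. Of the members' UMIs in the NHP2 libraries pooled, IFIT1 gave 64.3% in bipolar-like, 50.3% in cone-like, 46.0% in Müller glia-like and 43.0% in rod-like cells, but 14.6% in myeloid-like and 13.1% in T/NK-like cells. OAS2 ran the other way, with 0.56% in rods and 0.76% in Müller glia against 18.9% in myeloid, 29.2% in T/NK and 47.1% in B and plasma cell-like cells. OASL gave 14.6% in T/NK-like and 5.52% in myeloid-like cells and 0.072% in Müller glia-like cells. IFI44L gave 16.6% in myeloid-like, 4.16% in Müller glia-like and 0.63% in rod-like cells, whereas IFI44 gave 9.43% in rods and 9.35% in myeloid cells. IFIT5 gave 12.9% in rods, against 1.85% in Müller glia. The pooled rod shares rest mostly on the mScarlet blebs, and by library IFIT5 was 5.52 of 9.39 CPM in the left uninjected area and 5.98 of 9.88 CPM in the left hRPGR bleb, but 10.9 of 134 CPM in the right mScarlet bleb. Free RNA had 46.1% IFIT1 and 20.8% IFIT3, beside 46.0% and 23.6% in Müller glia-like cells. These shares are pooled descriptions without a test.

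Counted by cell, each cell was thinned to 3000 UMIs so that depth was equal, and shallower cells were left out (450 to 1027 rod-like, 140 to 391 Müller glia-like and 30 to 207 myeloid-like cells per library). Intervals are exact 95% binomial and cover counting error only. In rods, the share with a UMI of any member was 3.19% (2.70 to 3.74) in the right and 2.47% (1.95 to 3.10) in the left uninjected area. It was 14.7% (13.6 to 15.8) and 3.11% (2.59 to 3.70) in the hRPGR blebs, and 20.9% (19.7 to 22.2) and 15.6% (14.5 to 16.6) in the mScarlet blebs. Without thinning these shares were 6.79% and 5.88%, 22.4% and 5.53%, and 31.1% and 23.6%. Most rods of every area thus had no member UMI at this depth, and cells with UMIs of 2 or more members were 5.59% and 4.27% of rods in the mScarlet blebs and 1.35% in the right hRPGR bleb.

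Müller glia-like cells differed in how many members a cell held at once. Cells with at least 3 members were 79.4% (75.4 to 82.9) in the right uninjected area, 80.9% (77.4 to 84.0) in the right hRPGR bleb and 55.0% (50.3 to 59.6) in the right mScarlet bleb. In the left eye they were 3.74% (2.62 to 5.17), 11.3% (8.99 to 14.0) and 29.0% (25.1 to 33.0). Without thinning the values were 78.3%, 80.9% and 62.1% on the right and 19.8%, 22.5% and 40.1% on the left. Cells with any member were 99.4%, 99.1% and 94.3% on the right and 59.1%, 64.8% and 84.4% on the left, against 33.8% and 36.5% in NHP1. In myeloid-like cells at least 3 members were held by 46.3%, 42.0% and 44.2% on the right and 8.51%, 11.4% and 18.0% on the left. Without thinning these were 51.7%, 48.9% and 56.9% and 29.9%, 29.3% and 45.5%. No class is known to lack these genes, so the background share could not be read from one. The estimate of free RNA above stands in its place.

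Within the blebs, rods with a UMI of the bleb's own transgene were set against rods of the same library without one, both thinned to 3000 UMIs. In the right mScarlet bleb 2188 rods with mScarlet were at 146 CPM of the members and 2177 without at 129 CPM. In the left mScarlet bleb 2118 with were at 135 CPM and 2801 without at 105 CPM. The right hRPGR bleb had 61.5 CPM in 4110 rods with and 59.8 CPM in 117 without, and the left hRPGR bleb 15.1 CPM in 2582 with and 4.03 CPM in 1407 without. The cells with the transgene were thus higher in 4 of 4 libraries, by a mean log2 ratio of 0.62 ± 0.87 (SD, n = 4). An exact two-sided sign-flip permutation test gave p = 0.12, the smallest that 4 libraries allow. Most of the mean came from the left hRPGR bleb, at 1.91, and without it the mean was 0.19. In that bleb the members had 117 UMIs in rods with the transgene and 17 in rods without. IFIT5 gave 70 of the 117 and 6 of the 17. Rods with and without were not matched by cluster. Without thinning the mean was 0.13 (exact permutation p = 0.625), with the right hRPGR bleb at -0.85. Rods without a transgene UMI in the mScarlet blebs were still above the rods of the uninjected areas as a whole, and a cell without a UMI may still carry the vector.

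The genes around the members in the pathway were read from 4 lists, the interferon signalling genes, the RNA sensing genes, other genes led by type I interferon, and genes led by interferon gamma. In rods of the mScarlet blebs, edgeR called 3 of 16 signalling genes tested, 0 of 9 RNA sensing genes, 2 of 15 other type I genes and 3 of 7 gamma-led genes, all higher, against 1.56% of all genes in either direction. With the eye as a block all of these counts were 0, and with DESeq2 they were 6, 3, 8 and 4. The called genes with the lowest p were PSMB9 (log2 fold change 5.76 ± 0.40, adjusted p = 0.0203), BST2 (7.26 ± 0.53, 0.0203), PSMB8 (3.79 ± 0.36, 0.0261), EPSTI1 (4.6 ± 0.46, 0.0287) and IRF1 (2.96 ± 0.41, 0.0388). PSMB8 and PSMB9 are subunits of the immunoproteasome, which cuts peptides for display to T cells, and BST2 tethers budding virus. IRF1 is a transcription factor induced mostly by interferon gamma. STAT2 and IRF9, which belong to the complex that binds the element searched above, were at 0.78 (adjusted p = 0.0932) and 2.15 (0.272).

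Cone-like cells of the mScarlet blebs had 1 of 16 signalling, 0 of 9 RNA sensing, 1 of 9 other type I and 3 of 5 gamma-led genes called (0.567% of all genes), the same list counts as with the eye as a block. They were PSMB8 (4.28 ± 0.23, adjusted p = 0.000606), NLRC5 (5.03 ± 0.36, 0.00206), PSMB9 (5.84 ± 0.45, 0.0035), EPSTI1 (4.21 ± 0.36, 0.0053) and IRF1 (3.36 ± 0.36, 0.0137). NLRC5 turns on MHC class I genes. Bipolar-like cells had 3 of 15, 0 of 9, 4 of 12 and 4 of 5 called, led by GBP3 (4.98 ± 0.20, adjusted p = 1.27e-05), PSMB8 (3.67 ± 0.22, 0.000147), IRF1 (3.20 ± 0.26, 0.000937), BST2 (5.70 ± 0.47, 0.000937) and PSMB9 (4.36 ± 0.37, 0.000962). Of all genes 0.608% were called in bipolar-like cells. With the eye as a block the bipolar list counts were 3, 1, 3 and 4.

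In Müller glia-like cells, where the members did not separate the mScarlet blebs from the uninjected areas, 1 of 15 signalling, 0 of 9 RNA sensing, 0 of 16 other type I and 4 of 9 gamma-led genes were called, or 1, 0, 0 and 3 with the eye as a block. Of all genes 0.553% were called there. CXCL10, a chemokine that draws T cells, was at 0.43 and 0.81 CPM uninjected, 157 and 167 CPM in the hRPGR blebs and 842 and 737 CPM in the mScarlet blebs on the scaled level of the fit. Its log2 fold change was 10.16 ± 0.25 for mScarlet (adjusted p = 1.55e-05 by edgeR) and 7.88 ± 0.24 for hRPGR (7.06e-05). These SE are derived from the test and may be too small, as the uninjected levels were very low. CXCL10 was nearly even between eyes in the blebs. GBP3 (4.73 ± 0.35, adjusted p = 0.0112), IRF1 (2.58 ± 0.28, 0.0259) and IDO1 (5.36 ± 0.59, 0.0259) were also called, as was CXCL11, which had no UMI in the uninjected areas and 30.5 and 42.4 CPM in the mScarlet blebs. CXCL11 thus entered the test only through the blebs, so the gamma-led count is in part set by the count filter. STAT2 and IRF9 were at 0.07 and 0.10 and not called.

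In myeloid-like cells edgeR called 0 of 16 signalling, 0 of 10 RNA sensing, 0 of 18 other type I and 1 of 10 gamma-led genes for mScarlet against uninjected areas, and 1.57% of all genes. The called list gene was PSMB8, at 1.11 ± 0.22 (adjusted p = 0.0491), and the list counts were the same with the eye as a block. At an unadjusted p under 0.05 there were 7 higher and 1 lower signalling genes, 1 RNA sensing gene, 0 other type I genes and 8 gamma-led genes, beside 17.6% of all genes in either direction, and DESeq2 called 1, 0, 0 and 5. Between the blebs CXCL10 (2.03 ± 0.23, adjusted p = 0.0257) and CIITA (1.03 ± 0.20, 0.0484), the factor that turns on MHC class II genes, were called, or 1 gamma-led gene with the eye as a block. Of all genes 1.28% were called between the blebs.

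Between eyes, 0 genes of the 4 lists were called by edgeR in Müller glia-like cells, and DESeq2 called 1 signalling and 2 RNA sensing genes. At an unadjusted p under 0.05, 13 of 16 other type I genes (median log2 difference -1.96), 5 of 9 RNA sensing genes (-1.15) and 5 of 15 signalling genes (-0.15) were lower in the left, but 0 of 8 gamma-led genes (-0.24), beside 1.47% of all genes. STAT2 was at -1.42 and IRF9 at -1.14. In myeloid-like cells 15 of 18 other type I genes (-0.78) and 5 of 10 RNA sensing genes (-0.41) were lower at this p (1.34% of all genes), and no gamma-led gene (-0.13), while 1 of 10 was higher. Of 15 signalling genes 5 were lower and 1 was higher, with a median of 0.01. edgeR called 0 and DESeq2 called 8 other type I genes and 1 RNA sensing gene. The difference between these lists was not tested.

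The genes most alike to the members were found over 79 sums of a class in a library, among 16630 genes, by Pearson's r with the mean log2(CPM + 1) of the members. They were MX1 (0.91), UBE2L6 (0.90), XAF1 (0.90), PARP10 (0.89) and PARP9 (0.89). MX1 is an antiviral GTPase, and UBE2L6 carries the ubiquitin-like ISG15 to its targets. The sums share libraries and cell classes, so r is a description. Among the members, the correlation of each with the mean of the other 9 was 0.89 for OAS3, 0.88 for IFI44, 0.88 for IFIT3, 0.85 for IFIT2 and 0.83 for OAS1. It was lower for IFI44L (0.79), OAS2 (0.75), IFIT1 (0.68), IFIT5 (0.66) and OASL (0.65). IFIT1, the member with the largest pooled share in Müller glia, rods, cones and bipolar cells, was thus among those that followed the others least over these sums. The sums mix classes with unlike shares of IFIT1, and correlations within a class were not taken. These values therefore do not show how the members moved together between areas or eyes.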

How the data were processed

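The deposited values were raw UMI counts per gene and barcode from 8 droplet 5′ libraries, made by the authors with Cell Ranger 8.0.1 on an Mmul_10 reference with 3 transgene features and deposited without a cell filter. The study's own removal of free RNA and doublets is not in these counts. A barcode counted as a cell if it had 1500 UMIs or more, 300 genes or more and a mitochondrial share of no more than 20%, and 8604 cells with high doublet scores were removed, which left 83192. These were clustered with scanpy 1.11.5 (Leiden resolution 2, 60 clusters) and named from marker lists. Free RNA was read from barcodes with 100 to 1000 UMIs, and its part in each class estimated from markers of other classes.

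UMIs were summed per class and library. The 6 NHP2 libraries were compared with edgeR 4.0.16 (R 4.3.3) by its quasi-likelihood test, with TMM factors (0.915 to 1.07), edgeR's low-count filter and Benjamini-Hochberg adjustment over all genes at 0.05. Left and right eyes were compared with area in the model. The low-count filter keeps a gene that reaches its minimum in as many libraries as a group holds. A member or a list gene can therefore enter a test through the group where it is high. DESeq2 1.42.0 was an alternative. NHP1 entered no test. The edgeR step was run on simulated data with a fixed dispersion and with changes set only in well-counted genes. That run therefore does not show its power for members with few UMIs or a wide spread. The replicate number is the eye, so same-numbered areas come from the same eye. The correlation of their deviations from the group means ran from -0.41 to 0.27 in rods, -0.33 to 0.33 in cones, -0.15 to 0.07 in bipolar cells, -0.05 to 0.10 in Müller glia and -0.10 to 0.03 in myeloid cells.

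Intervals are exact binomial and cover counting error only. The SE of a fitted log2 fold change was derived from the test, as the size of that change divided by the square root of the test's F. It is approximate, above all where a group has few UMIs. All members were named. Of the pathway lists, STAT2 and IRF9 were always named, with at most 5 others per comparison, those with the lowest p among called genes, and the 5 genes most alike. RIGI was counted under its older symbol DDX58. IL10RB, IFIH1, GBP1, GBP2, GBP4, GBP5, TAP1 and TAP2 were not matched by symbol and were not analysed here, and 2 other genes of the naming rule are not reported here. The members and lists were chosen with earlier results of these data known. Comparing eyes in classes other than rods, counting unnamed rod clusters as rods, leaving out TMM scaling and repeating the clustering from 3 other random starts were chosen after seeing the data.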

Additional observations from a re-analysis of the deposited data

Results flagged for a closer look

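In Müller glia-like cells the summed level of the members went in opposite directions in the eyes of NHP2 in all 3 comparisons of areas, each with 1 library per eye and area, so the difference between eyes was not tested. The log2 ratio of the mScarlet bleb to the uninjected area was -0.91 for the right eye and 2.13 for the left. The hRPGR bleb against the uninjected area was at -0.18 and 1.15, and the mScarlet against the hRPGR bleb at -0.73 and 0.98. The library labelled as the right uninjected area, where the RPGR transgene was found in rods, enters the first and second of these.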

How the results depend on the processing

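edgeR called 0 members in each of the 20 comparisons, and 307 of 344 alternative fits also called 0. DESeq2 called 6 in rods for mScarlet against uninjected areas, 1 in rods between blebs, 1 in cones and 1 in myeloid cells for mScarlet, and 1 in Müller glia and 4 in myeloid cells between eyes. Without the low-count filter, rods had 6 for mScarlet, among 1293 genes called in all. Cones had 5 for mScarlet, 2 for hRPGR and 1 between blebs, among 1060, 400 and 331 genes. Bipolar cells had 5, 1 and 5, and 4 between eyes, among 528, 86, 310 and 45 genes. Myeloid cells had 3 for mScarlet, 2 for hRPGR, 1 between blebs and 8 between eyes, among 1125, 238, 811 and 71 genes. In rods for mScarlet, cells with at least 3000 UMIs gave 3 and subtracting free RNA gave 4, among 383 and 616 genes. With the eye as a block (the pairing by replicate number) myeloid cells had 1 for mScarlet, OASL, and no other member call changed.

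Leaving out 1 library gave 0 to 6 in rods for mScarlet (6 without either hRPGR library), 0 to 3 for hRPGR (3 without its left library), 0 to 5 between blebs (5 without the right hRPGR library) and 0 to 1 between eyes (1 without the right hRPGR library). For mScarlet it gave 0 to 2 in cones and 0 to 1 in bipolar cells, the highest without either hRPGR library. Between eyes it gave 0 to 6 in Müller glia (6 without either mScarlet library) and 0 to 8 in myeloid cells (8 without the right uninjected library, 4 and 5 without the right and left hRPGR library). The myeloid count was 0 without the left uninjected library or without either mScarlet library. The mean log2 ratio of rods with and without a transgene UMI ran from 0.19 to 0.82, was 0.13 without thinning and 0.71 with at least 2 UMIs. Of all 344 alternative member medians 21 had another sign. Among the 225 whose reported median was over 0.5 in size 3 did, -0.73 for 1.92 in rods and -0.33 for 2.30 in cones for hRPGR without its right library, and -0.05 for 0.83 in cones between blebs without the right mScarlet library. The cause was not tested. Of 610 alternative values of called list genes 472 were still called and 0 had the opposite direction. The depth limits low members, and OAS1 and OASL in rods were under the filter. Repeating the clustering from 3 other random starts, an alternative chosen after seeing the data, edgeR called 0, 3 and 4 members between eyes in myeloid cells and 0 in each of the other 19 comparisons. The repeats shared 99.4% to 99.8% of the rods but 59.6% to 100.0% of the Müller glia. DESeq2 called 4 to 6 in rods for mScarlet, 0 to 1 in rods between blebs and in Müller glia between eyes, and 3 in myeloid cells between eyes. Without 1 mScarlet library Müller glia had 0 to 9 between eyes.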
